A study of Mus musculus with 2 samples.

Results

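The 9 genes described here, of 32285 in the count tables, make, use or carry the amino acid arginine: Arg1, Arg2, Nos2 and Gatm consume it, Slc7a1 and Slc7a2 carry it into cells, Ass1 and Asl make it again from citrulline, and Odc1 takes the arginase product onward into polyamines. They were chosen by symbol for this role and not by a cut on their values, although earlier results of these data were known. All 9 were found in the tables and had UMIs (unique molecular identifiers, each standing for a captured RNA molecule) in both libraries. They were measured by single-cell RNA sequencing of tumors that formed at the site of a peritoneal abrasion in female C57BL/6 mice aged 6 to 8 weeks. All mice carried syngeneic ovarian cancer cells (genotype p53-/-, Myc, Hras), 1 cell line injected intraperitoneally after the abrasion. The control IgG group (7 mice per the labels) and the Activin A neutralizing antibody group (8 mice) received daily intraperitoneal injections for 10 days, starting 1 day after the cancer cells. Tissue of each group was pooled into 1 library, so that nothing separates the effect of the antibody from other differences between the 2 libraries, and no test between the groups was possible. Every interval below is a 95% interval of counting error only, exact Poisson for a level and conditional binomial for a ratio. Such an interval takes UMIs as independent and so understates the error of genes that vary between cells. This weighs most on genes whose UMIs came from a handful of cells.

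Arginine is a branch point in macrophages. Arginase splits it into ornithine and urea, inducible nitric oxide synthase turns it into nitric oxide and citrulline, and both compete for the same supply through cationic amino acid carriers. High Arg1 is a textbook feature of alternatively activated and many tumor macrophages, and arginine depletion by such cells is known to restrain T cells. High Nos2 is the usual mark of classical activation in the mouse.

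Cells were kept at 1000 to 8500 genes and 1000 to 100000 UMIs with no more than 10% of UMIs mitochondrial, which left 8770 cells of the control IgG library and 6386 of the antibody library, with medians of 5719 and 4660 UMIs. Cells were gated into classes by marker genes that do not include the 9, and levels are given as CPM, the UMIs of a gene per 1000000 UMIs of the class. The gates gave 1191 control and 325 antibody macrophage-like cells, 449 and 239 monocyte-like cells, 271 and 194 dendritic-like cells, 187 and 233 stromal-like cells, 325 and 352 cancer-like cells, and 15 and 24 neutrophil-like cells. Lymphocyte-like cells, 5774 and 4675, served as a class for comparison. Macrophage-like cells were 13.6% of control and 5.09% of antibody cells. The 4 macrophage check markers (Adgre1, Csf1r, Apoe and Cd68) summed to 6825 and 5110.5 CPM in macrophage-like cells and to 56.7 and 27.7 CPM in lymphocyte-like cells. Apoe made most of the macrophage-like sum (5808 CPM in the control), while Adgre1 was higher in the antibody library (229 and 278 CPM). The 4 markers summed to 4414 and 2254 CPM in monocyte-like cells, whose gate asks the C1q genes to be low. The 3 monocyte check markers (Itgam, Fcgr1 and again Csf1r) summed to 1222 and 1055 CPM there, below the 1377 and 1197 CPM of macrophage-like cells. The monocyte check markers thus did not set this class apart from macrophage-like cells. How much macrophage RNA it holds was not tested. The stromal-like class also held mesothelial markers (384 and 402 CPM summed over 4 genes). Among the check markers of the cancer-like class, Igf2bp3 was found in 70.5% and 71.0% of cells, but Krt8 and Peg3 in few (8.00% and 9.66%; 0.615% and 0.852%), and the 4 together were lower there (68.3 and 65.2 CPM) than in stromal-like cells (223 and 149 CPM). Mesothelial markers summed to 90.7 and 97.3 CPM in the cancer-like class, with Wt1 in 76.9% and 77.0% of its cells. Its name thus rests on the gate genes, Igf2bp3 and Lin28b (found in 41.2% and 37.2%). These shares came from deep cells, with medians of 57844 and 55294.5 UMIs. In the control, Igf2bp3 was 33.9 CPM there, 16.3 CPM in lymphocyte-like and 2.73 CPM in stromal-like cells. Lin28b was 13.7, 0.303 and 0 CPM in the same order. Wt1 was 67.8 CPM in cancer-like and 145 CPM in stromal-like cells. The libraries shared 19 barcodes among the kept cells, and 376 and 186 cells that passed the gates of several lineages were left out. Doublets were not called, and any within a class stayed in it.

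**Figure D1:**
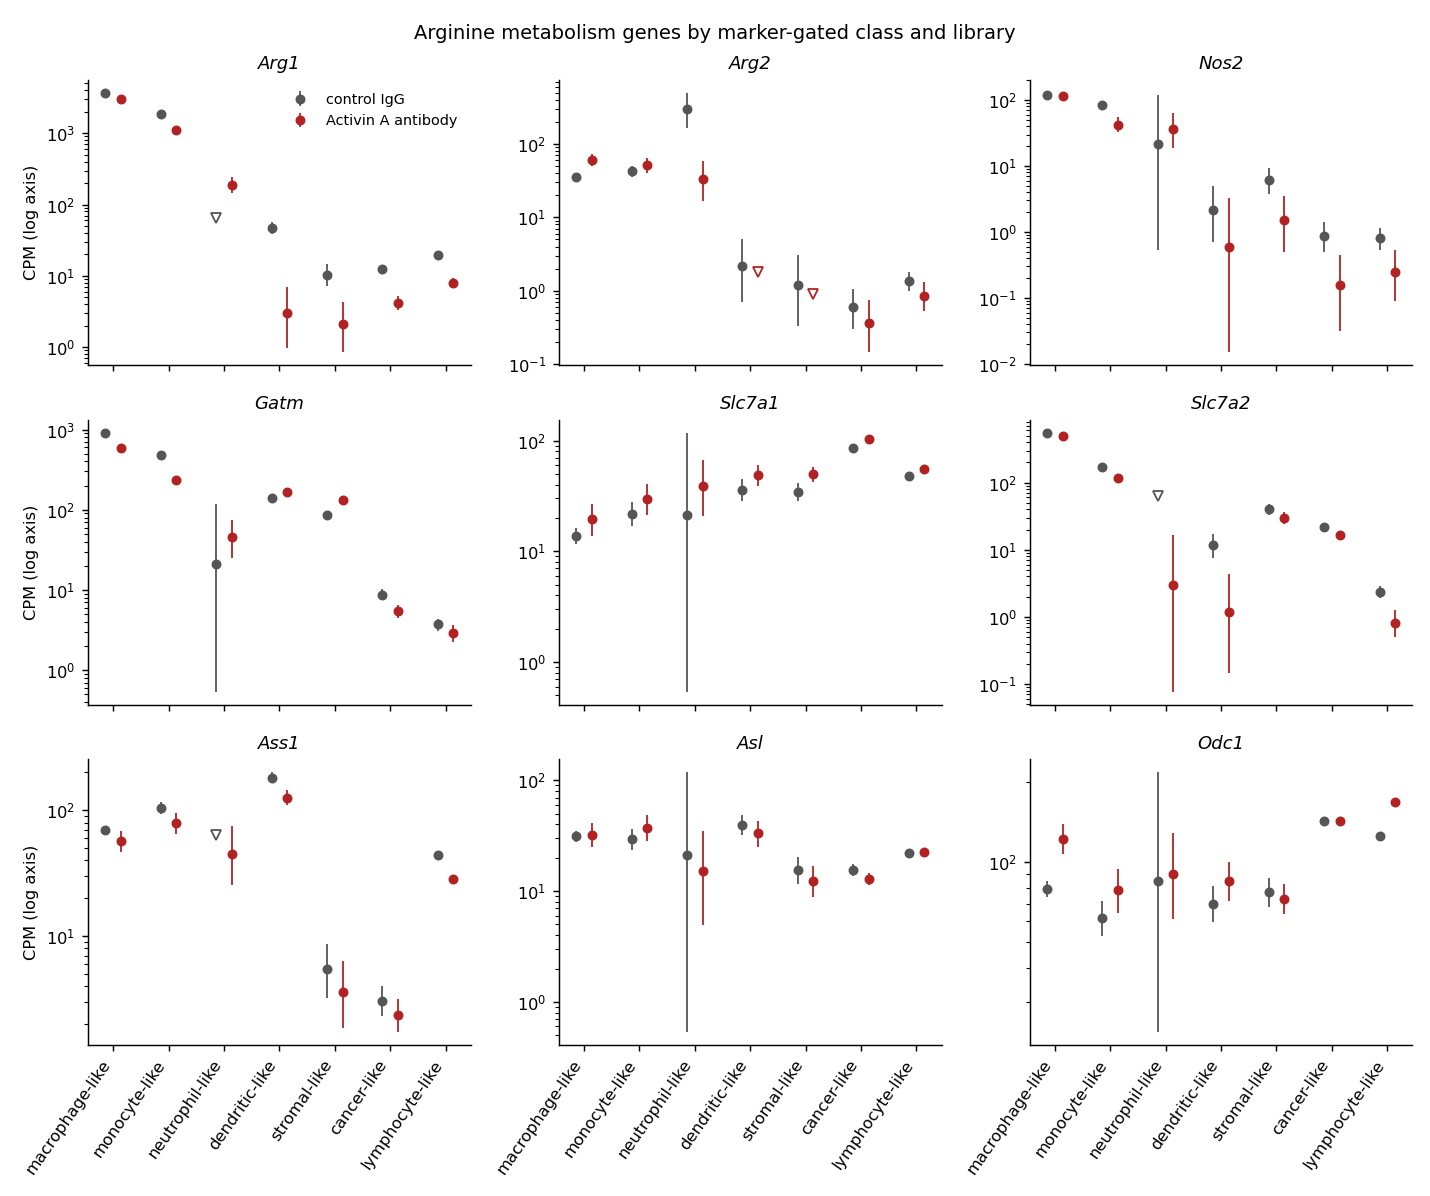
Level of each of the 9 genes (CPM, log axis) in the 7 gated classes, 1 point per library (grey, control IgG; red, antibody), with exact Poisson intervals. Open triangles stand at the limit that a count of 0 allows (3 UMIs). Arg1 spans from 3666 CPM in control macrophage-like cells to 2.11 CPM in antibody stromal-like cells, while Odc1 stays between 61.8 and 168 CPM in the plotted classes.

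Of the 9 genes, 4 had a RefSeq promoter window (GRCm38.p6, 250 bases before to 50 after a start, strand of the gene). The windows of 3 are shown, chosen by the ratios of these genes between the libraries. Gatm, whose window is not shown, had the lowest macrophage-like ratio (-0.63) and differed in direction between classes. The windows shown are also those that hold matches of the motifs below. Outside neutrophil-like cells, Ass1 was lower and Slc7a1 higher with the antibody in each class. Odc1 was higher except in stromal-like (-0.08) and cancer-like cells (0.00). Several of these intervals include 0 (values below). Capitals mark matches, on either strand, of 4 motifs: CACGTG (E-box), GGGCGG (GC box), CAGAC (SMAD box) and TGANTCA (AP-1 site). Of 32851 windows of this length, 7.15% hold the E-box, 35.7% the GC box, 49.6% the SMAD box and 7.81% the AP-1 site.
Ass1, chr2:31470020-31470319, plus strand: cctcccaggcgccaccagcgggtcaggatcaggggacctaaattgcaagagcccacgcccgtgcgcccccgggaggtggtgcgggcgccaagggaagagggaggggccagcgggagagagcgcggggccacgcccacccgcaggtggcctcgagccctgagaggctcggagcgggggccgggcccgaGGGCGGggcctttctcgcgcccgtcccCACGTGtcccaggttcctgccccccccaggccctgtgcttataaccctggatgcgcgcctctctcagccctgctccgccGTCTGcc
Odc1, chr12:17544623-17544922, plus strand: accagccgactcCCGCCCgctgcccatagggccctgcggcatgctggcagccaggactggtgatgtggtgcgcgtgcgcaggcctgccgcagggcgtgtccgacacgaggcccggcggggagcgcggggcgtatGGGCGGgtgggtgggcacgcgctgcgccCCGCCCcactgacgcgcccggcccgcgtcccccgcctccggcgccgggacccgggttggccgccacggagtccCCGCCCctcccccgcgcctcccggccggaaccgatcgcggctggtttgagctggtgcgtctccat
Slc7a1, chr5:148399855-148400154, minus strand: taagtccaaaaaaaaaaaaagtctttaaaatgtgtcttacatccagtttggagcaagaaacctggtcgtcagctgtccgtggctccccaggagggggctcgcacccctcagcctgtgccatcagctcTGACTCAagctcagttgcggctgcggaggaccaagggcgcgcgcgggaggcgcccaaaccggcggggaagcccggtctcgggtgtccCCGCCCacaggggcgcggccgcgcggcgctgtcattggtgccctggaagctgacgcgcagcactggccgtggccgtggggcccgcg
The Ass1 window held a GC box 63 bases and an E-box 36 bases before the start, and a SMAD box at base 44 after it. The Odc1 window held 4 GC boxes, and the Slc7a1 window shown an AP-1 match 123 bases before the start and a GC box at 36. A second Slc7a1 window (chr5:148392766-148393065) and that of Gatm held 0 matches. A match describes the letters of the window and is neither a shown binding site nor a cause.

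Arg1 encodes the cytosolic arginase that splits arginine into ornithine and urea (chr10:24915221-24927484, GENCODE M21 on GRCm38, as for the other gene positions, all protein coding). Among the gated classes it was highest in macrophage-like cells, at 3666 CPM (3627 to 3704) in the control library and 3036 CPM (2960.1 to 3113) in the antibody library. These cells held 77.4% of all Arg1 UMIs of kept control cells and 65.1% of those of antibody cells. Monocyte-like cells came next, at 1890.3 CPM (1841 to 1941) and 1107 CPM (1053 to 1164). The other classes lay far below, between 2.11 and 47.2 CPM, apart from neutrophil-like cells, which are given further on. The log2 ratio of antibody over control was -0.27 (-0.31 to -0.23) in macrophage-like cells and -0.77 (-0.85 to -0.69) in monocyte-like cells. Both were thus lower in the antibody library. Neither reached the 2-fold difference (log2 of 1) that, in the absence of replicates, was used in place of a call. The monocyte-like gate asked for at least 2 Lyz2 UMIs. With Lyz2 at 10 per 10000 UMIs asked of every monocyte-like cell, the monocyte-like ratio was -1.11. Summed, the 4 macrophage check markers were also lower in antibody monocyte-like cells (4414 and 2254 CPM), beside Arg1, Nos2, Slc7a2 and Gatm (below). Apoe made 3610 of the 4414 CPM. The part of macrophage RNA in these differences was not tested.

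**Figure D2:**
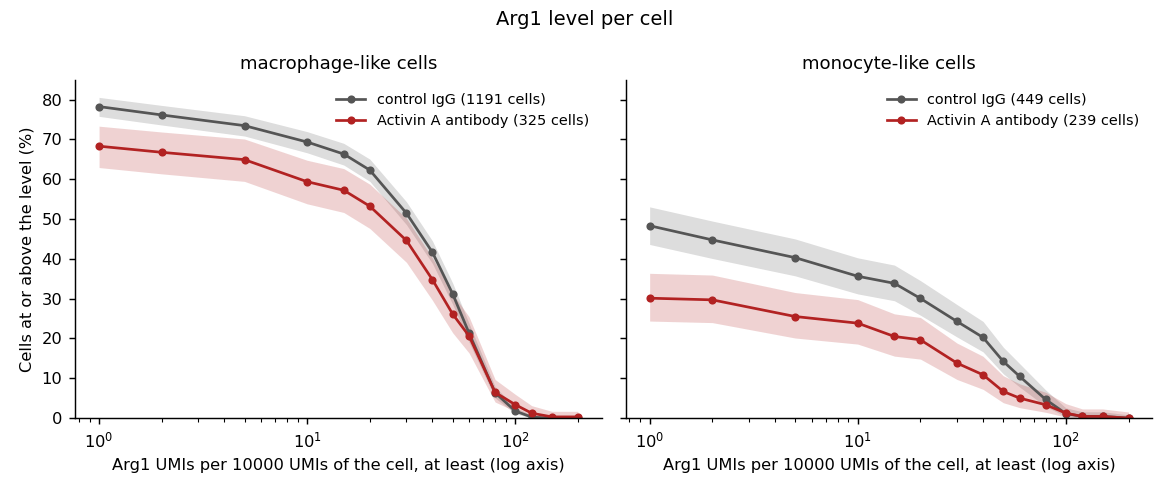
Share of cells (percent) at or above a given Arg1 level (Arg1 UMIs per 10000 UMIs of a cell) in macrophage-like and monocyte-like cells of each library, with exact binomial bands. At 10 per 10000 the shares are 69.4% and 59.4% in macrophage-like cells and 35.6% and 23.8% in monocyte-like cells, control before antibody.

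Read per cell, the difference in Arg1 lay more in how many cells held Arg1 than in its level among those that did. An Arg1 UMI was found in 78.7% of control macrophage-like cells (937 of 1191) and in 68.6% of antibody cells (223 of 325). With every cell thinned to 2000 UMIs, so that depth was equal, the shares were 74.5% (exact binomial interval 71.9 to 77.0%) and 66.1% (60.6 to 71.4%). Thinning left out 30 and 12 shallower cells. Among the Arg1-positive macrophage-like cells, the level was 4459 CPM (4413 to 4506) and 4258 CPM (4152 to 4366). In monocyte-like cells the thinned shares were 42.8% (38.1 to 47.5%) and 27.5% (21.8 to 33.7%), and the positive cells held 3558 CPM (3465 to 3653) and 3415 CPM (3248 to 3588). The median Arg1-positive cell was at 42.0 and 40.3 per 10000 UMIs among macrophage-like cells and at 29.6 and 29.1 among monocyte-like cells. In lymphocyte-like cells, which should lack Arg1, the thinned share was 1.86% and 1.21%.

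Splitting macrophage-like cells by Pf4 and Ccl8, chemokine genes of some tissue macrophages, gave like differences in Arg1. Cells with at least 2 UMIs of these genes, summed, per 10000 are called cells with Pf4 or Ccl8. They made up 26.5% of control and 28.3% of antibody macrophage-like cells. Their Arg1 was 4228 CPM against 3427 CPM, a log2 ratio of -0.30 (-0.37 to -0.23), and in the other cells it was 3450.1 against 2882 CPM, a log2 ratio of -0.26 (-0.31 to -0.21). Slc7a2 was the gene whose intervals lay on opposite sides of 0 in these subsets, at 0.20 (0.03 to 0.36) in cells with Pf4 or Ccl8 and -0.30 (-0.42 to -0.18) in the others, a difference that was not tested.

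The low Arg1 levels of dendritic-like, stromal-like, cancer-like and lymphocyte-like cells were lower in the antibody library. Dendritic-like cells had 47.2 CPM (38.8 to 56.9) and 2.98 CPM (0.968 to 6.95), which gave a log2 ratio of -3.99, with 33.6% of the control UMIs in 1 cell. Stromal-like cells had 10.3 and 2.11 CPM (-2.29, -3.70 to -1.09), cancer-like cells 12.3 and 4.19 CPM (-1.56, -1.94 to -1.18), and lymphocyte-like cells 19.4 and 7.98 CPM (-1.29, -1.52 to -1.06). In cancer-like cells 32.0% of the control UMIs lay in 1 cell. Without the cell richest in Arg1 in each library, the log2 ratio was -3.72 in dendritic-like and -1.34 in cancer-like cells. At equal depth few cells held Arg1, and the intervals of the libraries overlapped. The shares were 2.58% (1.04 to 5.25%) and 1.05% (0.127 to 3.73%) of dendritic-like cells. In cancer-like cells they were 1.85% (0.683 to 3.99%) and 0.857% (0.177 to 2.48%). Stromal-like cells with Arg1 numbered 3 and 0. Free RNA moved the same way: barcodes with under 100 UMIs, taken as RNA outside cells, held Arg1 at 279 and 135 CPM. The macrophage check markers, summed, were also lower with the antibody in these classes, at 268 and 198 CPM in dendritic-like, 320.4 and 211 in stromal-like, 315 and 164 in cancer-like and 56.7 and 27.7 in lymphocyte-like cells. In the control, Apoe alone was 305 CPM in cancer-like cells, found in 86.2% of them, and 300 CPM in stromal-like cells. It was 76.0 CPM in dendritic-like and 40.8 CPM in lymphocyte-like cells. Adgre1 was 0.703 CPM in control cancer-like and 1.21 CPM in control stromal-like cells. With free RNA subtracted in proportion to haemoglobin, and the most haemoglobin-rich cell left out, the log2 ratios were -4.64 in dendritic-like, -2.29 in stromal-like, -1.66 in cancer-like and -1.51 in lymphocyte-like cells. The scaling, haemoglobin of the class over that of free RNA, was 0 in both stromal-like groups and in control dendritic-like cells. Nothing was subtracted there. In the rest haemoglobin was at most 0.729 CPM, so these values do not measure the part of free RNA. The part of macrophage RNA in these low levels was not tested.

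Nos2 encodes inducible nitric oxide synthase (chr11:78920787-78960254). It was again highest in macrophage-like cells, at 119 CPM (112 to 126) in control and 113 CPM (99.2 to 129) in antibody cells. The log2 ratio was -0.07 (-0.28 to 0.14), so that no difference was detectable at this depth. In monocyte-like cells Nos2 was 84.3 CPM (74.1 to 95.5) against 42.5 CPM (32.4 to 54.7), which gave a log2 ratio of -0.99 (-1.42 to -0.58), just short of 2-fold. It was -1.16 without the cell richest in Nos2 in each library, since 18.3% of the 60 antibody UMIs lay in 1 cell. Stromal-like cells had 6.07 and 1.51 CPM and lymphocyte-like cells 0.799 and 0.243 CPM, both beyond 2-fold lower, with free RNA at 13.9 and 4.33 CPM. Of the 20 control UMIs in stromal-like cells, 45.0% came from 1 cell. Dendritic-like and cancer-like cells held fewer than 20 Nos2 UMIs over both libraries, too few to be counted.

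Macrophages with Nos2 nearly always held Arg1 as well. Of 290 control macrophage-like cells with a Nos2 UMI, 283 (97.6%, 95.1 to 99.0%) also had Arg1, against 72.6% (69.5 to 75.5%) of the cells without Nos2. In the antibody library it was 58 of 61 cells (95.1%, 86.3 to 99.0%) against 62.5% (56.4 to 68.4%). At equal depth the shares were 95.8% against 71.5% in the control and 90.3% against 63.5% in the antibody library. The reverse share was small. After thinning, Nos2 was found in 15.8% (13.5 to 18.4%) of Arg1-positive and 2.03% (0.747 to 4.36%) of Arg1-negative control cells, and in 13.5% (9.18 to 19.0%) and 2.83% (0.588 to 8.05%) of antibody cells. These enzymes, often used as marks of opposite activation states, were thus found in the same cells, and in few macrophage-like cells was Nos2 seen without Arg1. Monocyte-like cells showed the same order, with Arg1 in 56 of 63 control cells with Nos2 (88.9%) against 42.7% of those without, and in 14 of 18 antibody cells (77.8%) against 26.2%. Doublets of an Arg1 cell and a Nos2 cell could add to such counts, and their part was not tested; with the deepest 5% of cells left out, the thinned Nos2 shares of Arg1-positive cells were 16.1% and 14.2%.

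**Figure D3:**
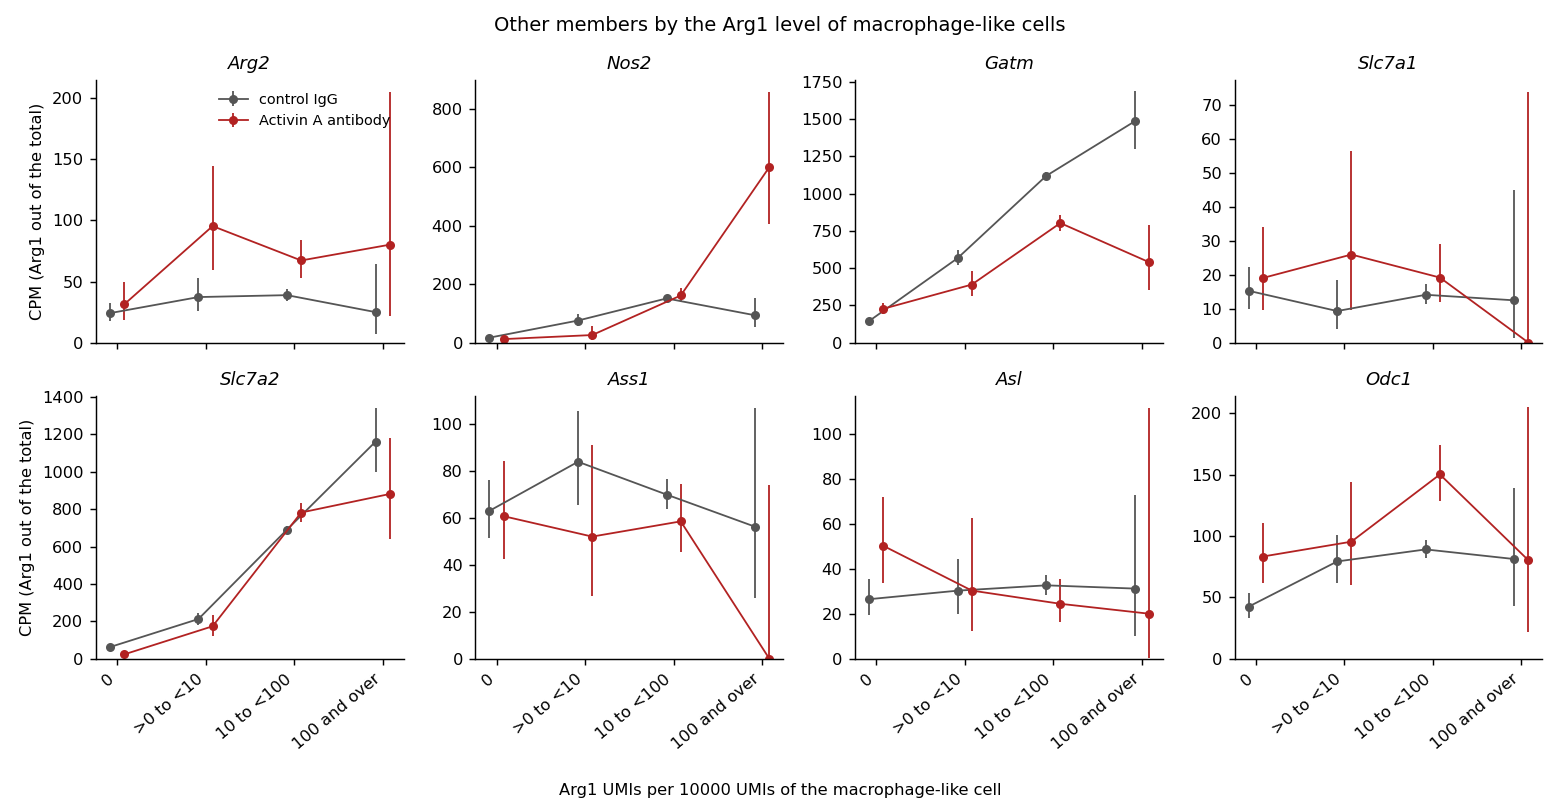
Level of the 8 other genes (CPM, Arg1 UMIs left out of the total) in macrophage-like cells grouped by Arg1 UMIs per 10000 (0, above 0 to under 10, 10 to under 100, 100 and over), by library, with exact Poisson intervals. Slc7a2 climbs from 61.8 to 1161 CPM over the groups in the control library, while Ass1, Asl and Slc7a1 show no such slope. The highest group holds only 21 control and 11 antibody cells.

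Slc7a2 encodes the inducible cationic amino acid carrier of macrophages (chr8:40862396-40922308). Its level in macrophage-like cells was 541 CPM (526 to 556) in the control and 494 CPM (464 to 526) in the antibody library, a log2 ratio of -0.13 (-0.23 to -0.03). It followed Arg1 from cell to cell. Control macrophage-like cells without Arg1 held 61.8 CPM of Slc7a2, those under 10 Arg1 UMIs per 10000 held 212 CPM, those from 10 to under 100 held 691 CPM, and those at 100 and over 1161 CPM. The same groups of antibody cells held 22.5, 173, 782 and 881 CPM. At equal depth, Slc7a2 was found in 49.9% (46.6 to 53.3%) of Arg1-positive and 12.5% (8.96 to 16.8%) of Arg1-negative control cells, and in 43.5% (36.6 to 50.5%) and 5.66% (2.11 to 11.9%) of antibody cells. In monocyte-like cells Slc7a2 was 171 CPM (156 to 186) and 115 CPM (98.4 to 135), which gave a log2 ratio of -0.56 (-0.83 to -0.31), and its thinned share was 36.3% against 3.15% in control and 20.3% against 1.18% in antibody cells with and without Arg1. Without the antibody cell that held 19.6% of the UMIs and its control counterpart, the ratio was -0.81. Stromal-like and cancer-like cells also held Slc7a2, at 39.7 and 29.9 CPM and at 22.0 and 16.5 CPM, against free RNA at 43.0 and 23.8 CPM. In dendritic-like cells it was 11.6 and 1.19 CPM, a log2 ratio of -3.28 (-6.40 to -1.29) that rested on 27 and 2 UMIs.

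Slc7a1, the broadly expressed carrier of the same family (chr5:148327410-148399904), had another distribution. It was highest in cancer-like cells, at 84.99 CPM (80.8 to 89.3) and 104 CPM (99.3 to 108), and lowest in macrophage-like cells, at 13.8 CPM (11.6 to 16.4) and 19.4 CPM (13.8 to 26.5). The remaining classes lay between, with dendritic-like (36.1 and 48.9 CPM) and stromal-like cells (34.6 and 49.9 CPM) not separated beyond their intervals. The level was higher in the antibody library in each of these classes, while in stromal-like cells the share of cells with Slc7a1 at equal depth was 6.99% (3.77 to 11.7%) in the control and 6.06% (3.35 to 9.96%) in the antibody library, a log2 ratio of -0.21. In monocyte-like cells this share was also not higher, at 4.05% (2.42 to 6.33%) and 3.86% (1.78 to 7.21%). Of the 42 antibody UMIs in monocyte-like cells, 16.7% lay in 1 cell. The log2 ratio was 0.29 (0.19 to 0.38) in cancer-like, 0.53 (0.17 to 0.88) in stromal-like and 0.22 (0.11 to 0.32) in lymphocyte-like cells. Its intervals reached below 0 in macrophage-like (0.49), monocyte-like (0.45) and dendritic-like cells (0.44). Free RNA held 24.7 and 42.9 CPM of Slc7a1, higher in the antibody library as well. Slc7a1 showed no clear slope with Arg1 in macrophage-like cells, at 15.3 CPM without Arg1 and 14.1 CPM from 10 to under 100 per 10000 in the control.

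Gatm encodes glycine amidinotransferase, the first enzyme of creatine synthesis, which takes its amidino group from arginine (chr2:122594467-122611303). Of the 9 genes it had the lowest ratio in macrophage-like cells, with 899 CPM (879.6 to 918) in the control and 581 CPM (549 to 616) in the antibody library and a log2 ratio of -0.63 (-0.72 to -0.54). In monocyte-like cells it was 476 CPM (452 to 502) and 235 CPM (210.4 to 262), a ratio of -1.02 (-1.20 to -0.85) that passed 2-fold. Gatm also went with Arg1: at equal depth it was found in 73.5% (70.5 to 76.4%) of Arg1-positive and 25.3% (20.5 to 30.7%) of Arg1-negative control macrophage-like cells, and in 55.1% (48.0 to 62.0%) and 21.7% (14.3 to 30.8%) of antibody cells. Within the group of 10 to under 100 Arg1 UMIs per 10000, Gatm was still lower with the antibody, at 803 CPM (752 to 857) against 1119.6 CPM (1095 to 1145). Without Arg1 the order of the level was the other way round, 227 CPM (189.9 to 269.6) with the antibody against 145 CPM (127 to 164). The share of these cells with Gatm was not higher with the antibody. With all UMIs it was 30.4% (21.7 to 40.3%) of 102 antibody and 37.8% (31.8 to 44.1%) of 254 control cells. Dendritic-like cells had 142 and 166 CPM (0.23, -0.01 to 0.46). Stromal-like cells had 85.6 CPM (75.9 to 96.1) and 131 CPM (119 to 144), a ratio of 0.62 (0.40 to 0.84) that pointed the other way, with 16.1% of the antibody UMIs from 1 cell. At equal depth Gatm was found in 8.06% of control and 8.66% of antibody stromal-like cells. This ratio turned to -0.17 when the gate thresholds were doubled. Gatm was 8.76 and 5.44 CPM in cancer-like cells and 3.72 and 2.87 CPM in lymphocyte-like cells, beside 68.7 and 41.4 CPM in free RNA.

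**Figure D4:**
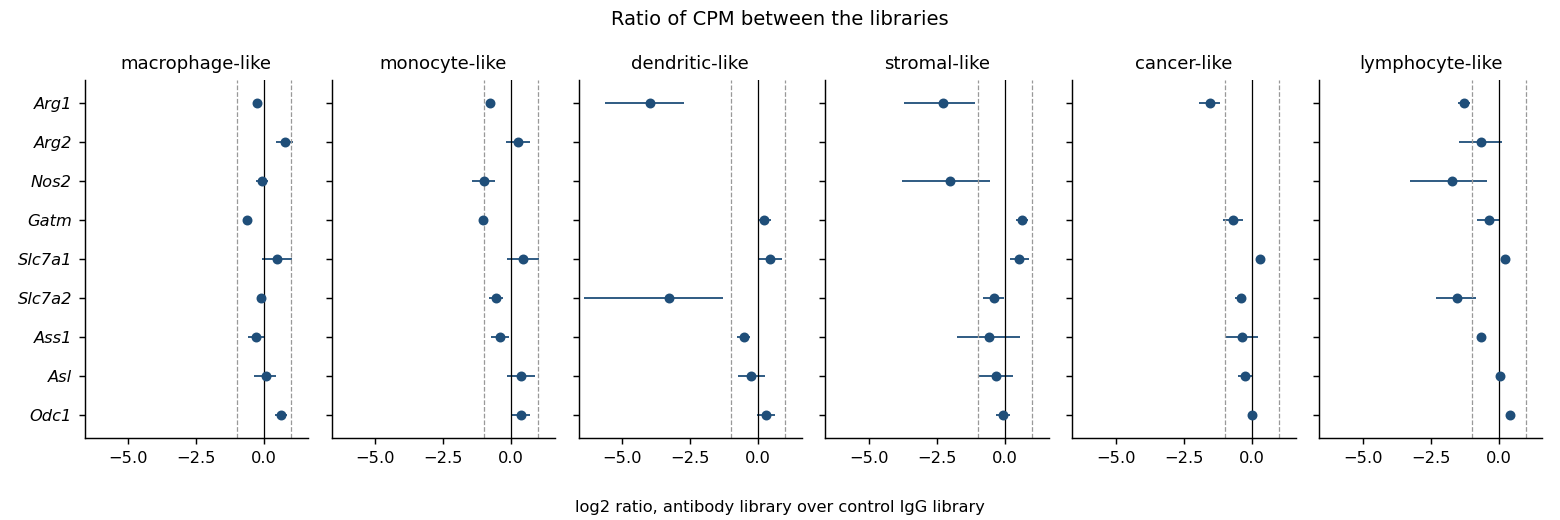
Log2 ratio of antibody over control IgG for each of the 9 genes in 6 gated classes, with conditional binomial intervals. Dashed lines mark 2-fold. Arg1 lies below 0 in all 6 classes and Slc7a1 above 0 in all 6, with 3 of the Slc7a1 intervals reaching 0.

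Arg2 encodes the mitochondrial arginase (chr12:79130777-79156301). In macrophage-like cells it was 35.7 CPM (32.0 to 39.7) in the control and 60.2 CPM (49.98 to 72.0) in the antibody library, a log2 ratio of 0.75 (0.44 to 1.06), opposite in direction to Arg1. It was -0.36 with free RNA subtracted, and 0.76 when the most haemoglobin-rich cell, on which that subtraction rests, was left out. The scaling by haemoglobin was 0.025 in the control and 4.84 in the antibody library with all cells, and 0.018 and 0.027 without that cell. At equal depth the shares of cells with Arg2 were 6.37% (5.04 to 7.94%) and 10.5% (7.37 to 14.5%). The log2 ratio was 0.96 (0.59 to 1.31) in macrophage-like cells low in Pf4 and Ccl8. In cells with Pf4 or Ccl8 it was 0.22 (-0.43 to 0.83), an interval that includes 0. The difference between these subsets was not tested. In CPM, Arg2 was higher in cells with Arg1, by less than Slc7a2 or Gatm: within 10 to under 100 Arg1 UMIs per 10000 it was 38.9 CPM (34.3 to 43.8) and 67.2 CPM (53.0 to 84.0), against 24.1 CPM (17.3 to 32.7) and 31.2 CPM (18.5 to 49.3) in cells without Arg1. At equal depth the shares with Arg2 overlapped in their intervals. They were 6.94% (5.33 to 8.84%) of Arg1-positive and 4.73% (2.61 to 7.81%) of Arg1-negative control macrophage-like cells. In antibody cells they were 11.1% (7.18 to 16.2%) and 9.43% (4.62 to 16.7%). Monocyte-like cells had 42.3 and 51.0 CPM, a ratio of 0.27 (-0.17 to 0.70) that includes no difference. Dendritic-like, stromal-like and cancer-like cells each held fewer than 20 Arg2 UMIs over both libraries.

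**Figure D5:**
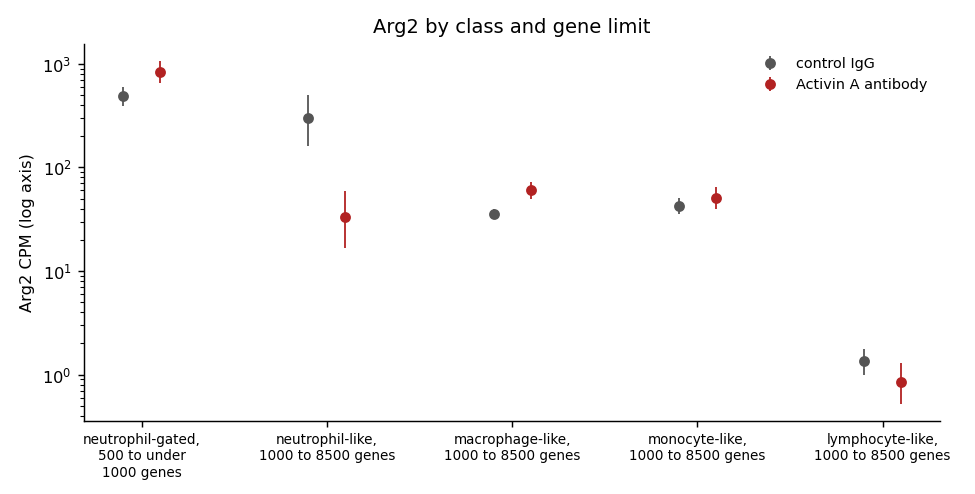
Arg2 level (CPM, log axis) by library with exact Poisson intervals, in barcodes passing the neutrophil gate with 500 to under 1000 genes, in neutrophil-like cells within the gene limits, and in 3 other classes. The barcodes with few genes hold 487 and 839 CPM, above the 35.7 and 60.2 CPM of macrophage-like cells.

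Neutrophils hold little RNA, and the limit of 1000 genes removed most of them. The 15 control and 24 antibody neutrophil-like cells that were kept did not match each other. Their median UMIs were 2169 and 10860.5, and the granule genes Camp and Ngp of immature neutrophils were found in 1 control cell but in 8 and 9 antibody cells, at 14539.7 and 9428 CPM, with Elane at 1026 CPM. In these cells Arg2 was 297 CPM (162 to 498) and 33.2 CPM (16.6 to 59.4), from 14 and 11 UMIs. The log2 ratio of -3.16 thus compares cells that also differ in these genes, and it was -1.21 with barcodes of 500 to 8500 genes. Barcodes with 500 to under 1000 genes that passed the same gate numbered 147 in the control and 57 in the antibody library and had no Camp or Ngp. There Arg2 was 487 CPM (392 to 598) and 839 CPM (653 to 1061), found in 44.9% (36.7 to 53.3%) and 54.4% (40.7 to 67.6%) of barcodes at medians of 1229 and 1415 UMIs. Lymphocyte-like barcodes of the same size, at medians of 1360.0 and 1296 UMIs, held Arg2 in 1 of 179 and 0 of 246, the latter allowing up to 9.69 CPM. Arg1 was near absent from the neutrophil-gated barcodes, with 5 UMIs (26.8 CPM) and 1 UMI (12.2 CPM), below the free RNA of each library. Among the kept neutrophil-like cells Arg1 had 0 UMIs in the control, where 3 UMIs would be 63.7 CPM (exact Poisson interval up to 78.3 CPM). It was 190.1 CPM (146 to 243) in the antibody library, with 42 of its 63 UMIs in 1 cell. Odc1 was 84.9 and 90.5 CPM in these cells, and Nos2, Gatm, Slc7a1, Slc7a2, Ass1 and Asl each had between 1 and 16 UMIs over both libraries.

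Ass1 and Asl, argininosuccinate synthase and lyase, make arginine from citrulline in sequence. Ass1 (chr2:31470207-31520672) was highest in dendritic-like cells, at 182 CPM (165 to 200.2) in control and 126 CPM (109.9 to 145) in antibody cells, a log2 ratio of -0.53 (-0.77 to -0.29). It was 105 and 79.3 CPM in monocyte-like (-0.40, -0.73 to -0.09), 69.4 and 56.7 CPM in macrophage-like (-0.29, -0.59 to -0.00) and 44.4 and 28.3 CPM in lymphocyte-like cells (-0.65, -0.78 to -0.52). Stromal-like and cancer-like cells held little, between 2.38 and 5.46 CPM. The level of Ass1 was therefore lower with the antibody in each of these classes, though in stromal-like (-0.59) and cancer-like cells (-0.37) the interval included 0. Free RNA held 26.8 and 16.9 CPM. At equal depth Ass1 was found in 28.04% (22.8 to 33.8%) and 16.8% (11.8 to 22.8%) of dendritic-like cells. Asl (chr5:130011258-130029247), the second step, lay between 12.4 and 39.5 CPM outside neutrophil-like cells. It was lowest in stromal-like (15.5 and 12.4 CPM) and cancer-like cells (15.5 and 12.9 CPM), against 31.2 and 32.4 CPM in macrophage-like cells. Its ratios lay between -0.32 and 0.35, and their intervals included 0 except in cancer-like cells (-0.26, -0.51 to -0.01).

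Odc1, ornithine decarboxylase, is the rate-limiting entry to polyamine synthesis (chr12:17544794-17551505). In macrophage-like cells it was higher with the antibody, 79.4 CPM (73.8 to 85.3) against 122 CPM (108 to 139), which gave a log2 ratio of 0.63 (0.41 to 0.83), and in lymphocyte-like cells, 126 against 168 CPM (0.42, 0.35 to 0.48). Cancer-like cells did not show this at a far greater depth: 142 CPM (137 to 148) and 143 CPM (138 to 148), a ratio of 0.00 (-0.07 to 0.08). Stromal-like cells were likewise at 77.1 and 72.8 CPM (-0.08, -0.34 to 0.18). Monocyte-like (0.35) and dendritic-like cells (0.28) lay above 0 with intervals that included it. Free RNA held 78.7 and 119 CPM, close to the levels of macrophage-like cells in each library. By Arg1 level, Odc1 was 42.4 against 83.2 CPM without Arg1 and 89.0 against 150.1 CPM from 10 to under 100 per 10000. Above 0 to under 10 the intervals overlapped, at 79.2 CPM (61.5 to 100.4) against 95.3 CPM (59.7 to 144). With free RNA subtracted and the most haemoglobin-rich cell left out, the macrophage-like ratio was 0.61, at a scaling of only 0.018 and 0.027.

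Counted by the 2-fold rule, none of the 9 genes differed in macrophage-like cells, in which 3.4% of 11319 genes were at least 2-fold lower and 3.22% at least 2-fold higher. In monocyte-like cells 1 of 9 was lower (Gatm) and 0 higher, against 3.13% and 2.17% of all genes. In dendritic-like cells 2 of the 7 genes with at least 20 UMIs were lower (Arg1, Slc7a2) and 0 higher, against 2.54% and 2.24%, and in stromal-like cells 2 of 8 were lower (Arg1, Nos2) and 0 higher, against 2.75% and 2.68%. In cancer-like cells 1 of 7 was lower (Arg1) and 0 higher, against 3.07% and 2.03%. In lymphocyte-like cells 3 of 9 were lower (Arg1, Nos2, Slc7a2) and 0 higher, against 1.99% and 1.65%. The genes past 2-fold outside monocyte-like and neutrophil-like cells were Arg1, Slc7a2 and Nos2. Their levels in those classes lay below those of free RNA, and the part of free RNA in these differences was not tested. Macrophage-like cells were also a smaller share of the antibody library, which levels in CPM within the class do not show.

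A list of 42 further genes of the pathway was read by the same 2-fold rule. In macrophage-like cells 35 were tested and 2 were at least 2-fold lower: Azin2, an antizyme inhibitor (15.6 and 5.97 CPM, log2 ratio -1.39, -2.37 to -0.54), and Ddah2, which breaks down methylarginines (13.6 and 5.97 CPM, -1.19, -2.18 to -0.34). None was 2-fold higher, and the median log2 ratio was 0.11 against 0.02 for all genes tested. Of all genes in these cells, 3.4% were at least 2-fold lower and 3.22% higher. The urea cycle enzymes Cps1, Nags and Otc had 0, 0 and 1 UMIs over both libraries, so that the cycle as known from liver was not detectable in these cells. In the other classes 28 to 38 list genes were tested and 0 or 1 lay past 2-fold in each direction, where 1.65% to 3.13% of all genes did. Srm, spermidine synthase, was higher (1.70, 0.87 to 2.57) and Ddah2 lower in monocyte-like, Aldh18a1 higher in dendritic-like, Amd1 higher in stromal-like and Gamt lower in lymphocyte-like cells, these 5 named after their values were seen.

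Across the 14 pairs of class and library, the genes whose level followed that of Arg1 most closely, by Pearson's r of log2(CPM + 10) among 13027 genes, were C3ar1 (0.990), Cacna1d (0.987), Ms4a8a (0.983), Gm36172 (0.974) and Tlr8 (0.974). Those nearest to Nos2 were Msr1 (0.980), Adgre1 (0.973), Mfsd1 (0.957), Trem2 (0.957) and Slc11a1 (0.953). The points share 2 libraries and their depth, and the correlations describe these classes only. Between the libraries, the listed genes did not all move with Arg1 or Nos2 in macrophage-like cells. Ms4a8a was higher with the antibody (120 and 138 CPM), while the other genes listed for Arg1 were lower. Of those listed for Nos2, Adgre1 was at 229 and 278 CPM and Trem2 at 447 and 273 CPM.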

How the data were processed

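The deposited values are raw UMI counts, which the authors left without normalization or a filter on barcodes, in 1 table for the library of each group. The file headers name Cell Ranger 4, the submitters' processing notes Cell Ranger 7.0.1 and mm10; the labels and the study also differ in the 10x chemistry and in the numbers of mice and days, and the labels were followed. Cells were gated on summed markers per 10000 UMIs (thresholds: macrophage 5, monocyte 2, dendritic 2, lymphocyte 4, cancer 15, stromal 50, neutrophil 50). The thresholds were set after looking at the data, and the genes and lists were chosen with earlier results of these data known. No gate used any of the 9 genes. A further macrophage check marker is not reported here. UMIs were summed per class and library. A gene was read against 2-fold with at least 20 UMIs over both libraries. Intervals (95%: Poisson, Clopper-Pearson, conditional binomial) cover counting error only; UMIs remove PCR copies but not other dependence. Shares were compared after thinning to 2000 UMIs. By rule, the 9 genes were named, pathway genes where past 2-fold in macrophage-like cells, and the 5 genes most like Arg1 and Nos2 by correlation among genes with at least 200 UMIs. The alternatives concerned gates, free RNA, cell weighting, totals, centring, the deepest cells, mitochondrial limit, depth, gene limit and multi-lineage cells. Computations were tested on simulated data and used Python 3.11.15, numpy 2.4.6, pandas 2.3.3, scipy 1.17.1 and matplotlib 3.10.9.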

Additional observations from a re-analysis of the deposited data

Results flagged for a closer look

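Gatm differed in direction between cell classes, with log2 ratios of antibody over control of 0.62 in stromal-like cells against -0.63 in macrophage-like, -1.02 in monocyte-like and -0.69 in cancer-like cells. Each class has 1 library per group, so the difference between the classes was not tested, and the stromal-like value was -0.17 with doubled gate thresholds.

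Arg2 was found in barcodes that fell under the limit of 1000 genes. These entered the class comparisons only in the alternative that kept barcodes of 500 to 8500 genes. Barcodes with 500 to under 1000 genes that passed the neutrophil gate held 487 CPM in the control IgG and 839 CPM in the antibody library, above the limit that a count of 0 allows there (16.1 and 36.5 CPM). The difference between the libraries was not tested.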

How the results depend on the processing

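No paired analysis was possible because there was 1 library in each arm, and for the same reason no replicate could be left out. Of 499 log2 ratios under 10 alternative settings, 440 stayed within the counting interval of the main ratio, 54 moved outside it and 5 reversed. Of 162 under 4 alternatives chosen after seeing the data, 159 stayed, 3 moved and 0 reversed. A reversal was counted only where the main interval excluded 0, so other changes of sign are among the rest. For example, thinned shares of dendritic-like cells with Odc1 were 12.5% in the control and 10.5% in the antibody library, against a main ratio of 0.28. Of 80 co-detection shares 64 stayed and 16 moved. With free RNA subtracted, the macrophage-like ratios became -0.62 (Arg1), -0.36 (Nos2), -0.51 (Slc7a2) and -0.36 (Arg2, a reversal), and 1 gene in place of 0 was 2-fold lower. This scaled free RNA by haemoglobin, most of which lay in 1 antibody cell, and without that cell Arg1 was -0.27 and Arg2 0.76. The scaling was then 0.018 in the control and 0.027 in the antibody library, so that little was subtracted. With cells weighted equally, Arg1 was -0.16 and Slc7a2 -0.014. Thinned shares gave -0.17 (Arg1), -0.31 (Nos2) and -0.40 (Slc7a2) in macrophage-like cells, -0.64 for Arg1 in monocyte-like cells, and reversals in stromal-like cells (Slc7a1 -0.21, Slc7a2 0.15). Without the deepest 5% of cells Arg1 was -0.22 and -0.59 in macrophage-like and monocyte-like cells, and with multi-lineage cells kept -0.34 and -0.89 (Nos2 in macrophage-like cells -0.30). Halved gates gave -0.94 for Arg1 in monocyte-like cells and 0.23 for Slc7a2 in stromal-like cells (a reversal), and doubled gates -0.17 for Gatm in stromal-like cells (a reversal). Asking Lyz2 at 10 per 10000 UMIs of every monocyte-like cell, an added alternative, gave -1.11 for Arg1, past 2-fold. At 1.5-fold, 1 gene was lower (Gatm) and 2 higher (Arg2 and Odc1) in macrophage-like cells. The share of all genes past 1.5-fold was not computed, so these counts cannot be read against it. With all UMIs, Nos2 was found in 30.2% and 26.0% of Arg1-positive macrophage-like cells. The cause of these changes was not tested unless stated. Depth limited all genes in the few neutrophil-like cells.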

Other observations

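Macrophage-like cells with and without Arg1 also differed in genes outside the 9. Lyz2, lysozyme of myeloid cells, stood at 13534 CPM in control cells without Arg1, at 3658 CPM from 10 to under 100 Arg1 UMIs per 10000 and at 1405 CPM at 100 and over, and at 8359, 1974 and 481 CPM in antibody cells. Retnla, an alternative activation gene, was at 928 CPM without Arg1 and 21.6 CPM from 10 to under 100 in the control, and at 865 and 15.7 CPM in the antibody library, so that its level was highest in cells without Arg1, although both are read as marks of alternative activation. Ccl24, an eosinophil chemokine of the same list, went with Arg1, at 3.53 and 129.8 CPM in control and 27.7 and 411 CPM in antibody cells. The mannose receptor gene Mrc1 was at 356 and 600.3 CPM in control and 293 and 764 CPM in antibody cells without Arg1 and from 10 to under 100.

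Of 9 alternative activation genes, 0 were at least 2-fold lower and 2 higher in macrophage-like cells with the antibody (Ccl24, 114 and 308 CPM, log2 ratio 1.43; Cd163, a haemoglobin scavenger receptor, 6.49 and 13.4 CPM, 1.05), with a median of 0.15, against 3.4% and 3.22% of all genes and an all-gene median of 0.02. Of 9 classical activation genes tested, 0 were lower and 1 higher (Ptgs2, the inducible cyclooxygenase, 72.6 and 239.9 CPM, 1.72), with a median of 0.25. In monocyte-like cells Ccl24 was higher (71.0 and 214.5 CPM, 1.596) and Cxcl9, an interferon-induced chemokine, lower (385 and 94.2 CPM, -2.03), both named after their values were seen. These values have no replicate check.

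Cells that passed no gate held 0.717% of the Arg1 UMIs of kept control cells and 5.41% of those of antibody cells, and cells that passed the gates of several lineages held 7.25% and 9.001%.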
